A study of Homo sapiens with 20 samples.

Results

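The 8 genes described here encode enzymes of the first steps of glycolysis and, for PFKFB3 and PFKFB4, of the control of phosphofructokinase. HIF1A binding at these genes was read from 8 lists of ChIP-seq peaks. The genes were the hexokinases HK1 and HK2, glucose-6-phosphate isomerase GPI, the phosphofructokinase subunits PFKL, PFKP and PFKM, and the bifunctional enzymes PFKFB3 and PFKFB4. A peak was assigned to a gene when its centre lay between 10 kb upstream of the gene's 5′ end and 10 kb past its 3′ end, in the GRCh37 coordinates of GENCODE release 44. By this rule 39 of the 26484 peaks in the 8 lists belonged to the 8 genes, which are among 20163 protein-coding genes to which the same window was applied.

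The study measured HIF1A binding in HCT116 and RKO, which are lines from colon carcinomas, and in A549 and H460, which are lines from lung carcinomas. Each is 1 established line, and the labels name no engineered change in any of them. Cultures spent 24 h in normoxia or under 1% oxygen (hypoxia), and HIF1A-bound DNA was recovered with an antibody against HIF1A. Each line and condition had 2 replicate ChIP libraries, which makes 16, and each line had 1 input library, which brings the total to 20.

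The replicates had been merged before peaks were called, so each list stands for 1 merged library and no value below has a replicate error. Signal is given as the normalized tag count, the number of sequenced tags in a peak per 10 M tags in the merged library, where 1 M stands for 1000000. Library totals after merging ran from 41.2 M to 81.5 M tags. Intervals in brackets are exact Poisson 95% intervals, which cover counting error only. The fold over input that a peak had to reach differed by line, at 13 in A549, 14 in H460, 7 in HCT116 and 6 in RKO. The study's methods say that it was adjusted for the efficiency of the immunoprecipitation in a line, judged from tags in peaks that the lines share. A gene without a peak is therefore described as not called, and its level is unknown. Peak lists hold no markers by which the identity of a line could be checked.

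Hexokinases phosphorylate glucose and so hold it in the cell, GPI converts glucose 6-phosphate to fructose 6-phosphate, and phosphofructokinase makes the step that commits the sugar to glycolysis. The PFKFB enzymes make and break down fructose 2,6-bisphosphate, a strong activator of phosphofructokinase. HIF1A is degraded while oxygen is plentiful, accumulates in hypoxia and binds, with its partner ARNT, to hypoxia response elements with the core RCGTG, where R is A or G. Glycolytic genes are among its best known targets.

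Of the 8 genes, 7 had at least 1 peak in hypoxia, and PFKM had none in any of the 4 hypoxia lists. The sequences below are the GRCh37 reference under peaks of the 7 genes with a peak in hypoxia. They are shown because the position and number of RCGTG cores near the peak centres are described further on. For each gene the region called in the most lines is given, with a second region for PFKP and for PFKFB3, and the peak is that of the line with the highest signal. Each is written 5′ to 3′ on the strand of the gene, and capitals mark RCGTG on either strand, so that CACGY, with Y for C or T, is a match that points against the gene. The palindrome CACGTG holds 2 overlapping matches.
HK2, upstream of the start, chr2:75060941-75061087, plus strand: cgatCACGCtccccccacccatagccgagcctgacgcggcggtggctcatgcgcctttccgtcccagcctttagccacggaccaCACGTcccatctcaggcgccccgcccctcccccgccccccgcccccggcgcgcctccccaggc
HK1, intron, chr10:71078249-71078389, plus strand: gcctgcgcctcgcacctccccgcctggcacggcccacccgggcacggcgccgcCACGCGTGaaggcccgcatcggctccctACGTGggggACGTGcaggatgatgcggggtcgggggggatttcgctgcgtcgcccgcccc
GPI, upstream of the start, chr19:34850190-34850330, plus strand: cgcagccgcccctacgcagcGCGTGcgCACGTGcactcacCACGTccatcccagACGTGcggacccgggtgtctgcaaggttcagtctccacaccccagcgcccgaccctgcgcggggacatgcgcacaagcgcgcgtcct
PFKL, intron, chr21:45720192-45720338, plus strand: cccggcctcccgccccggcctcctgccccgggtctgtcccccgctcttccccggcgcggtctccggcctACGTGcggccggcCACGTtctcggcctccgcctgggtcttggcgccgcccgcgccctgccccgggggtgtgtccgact
PFKP, intron near the start, chr10:3111182-3111328, plus strand: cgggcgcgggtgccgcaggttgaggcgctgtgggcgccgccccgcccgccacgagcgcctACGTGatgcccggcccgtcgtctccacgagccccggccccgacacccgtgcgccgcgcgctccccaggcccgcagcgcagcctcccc
PFKP, intron within the gene, chr10:3133259-3133399, plus strand: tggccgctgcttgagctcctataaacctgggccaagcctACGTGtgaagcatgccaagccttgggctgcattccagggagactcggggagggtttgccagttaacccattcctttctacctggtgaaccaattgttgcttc
PFKFB3, intron, chr10:6243543-6243683, plus strand: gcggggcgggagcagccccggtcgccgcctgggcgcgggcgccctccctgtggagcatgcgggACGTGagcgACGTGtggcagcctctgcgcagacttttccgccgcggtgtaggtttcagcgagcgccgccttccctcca
PFKFB3, A549 region further downstream, chr10:6246950-6247090, plus strand: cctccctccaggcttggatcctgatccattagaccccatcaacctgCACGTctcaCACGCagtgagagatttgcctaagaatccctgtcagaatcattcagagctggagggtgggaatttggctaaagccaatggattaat
PFKFB4, intron, chr3:48594646-48594792, minus strand: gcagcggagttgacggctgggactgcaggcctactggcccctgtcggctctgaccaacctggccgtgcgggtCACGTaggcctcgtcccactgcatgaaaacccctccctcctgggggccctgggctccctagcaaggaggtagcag

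In hypoxia, 7 of the 8 genes had a peak in A549, 7 in H460, 5 in HCT116 and 6 in RKO. Over all protein-coding genes a peak was called at 21.5% in A549, 18.4% in H460, 19.9% in HCT116 and 28.3% in RKO. In normoxia no member had a peak in HCT116, where 1.29% of all genes had one. The RKO normoxia list had a peak at HK1, against 6.93% of all genes. The A549 normoxia list had a peak at GPI, against 2.76% of all genes, and the H460 normoxia list had a peak at PFKM, against 3.81% of all genes.

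**Figure D1:**
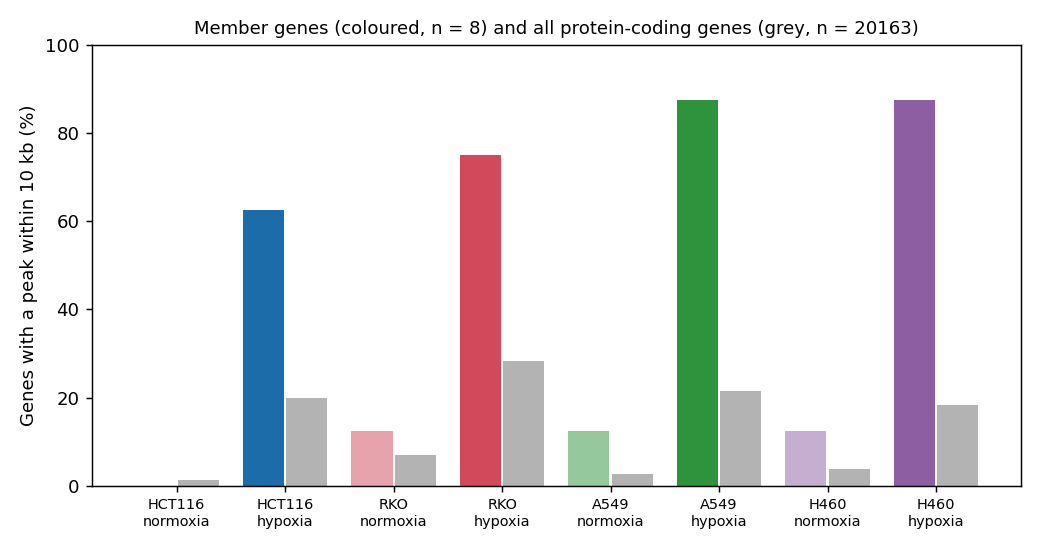
The bars give the share of genes with a HIF1A peak in the gene or within 10 kb, in percent, for the 8 member genes (coloured, paler in normoxia) and for all 20163 protein-coding genes (grey), in each of the 8 lists. In hypoxia the member share ran from 62.5% in HCT116 to 87.5% in A549 and H460, and in normoxia from 0 to 12.5%.

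Long genes gather more peaks, so the counts were also set against the length of the windows. In hypoxia the 8 genes held 12 peaks in A549, 10 in H460, 7 in HCT116 and 7 in RKO. This was 10.2 peaks per Mb of window in HCT116 and RKO, 17.4 in A549 and 14.5 in H460. All gene windows together held 2.57 peaks per Mb in A549, 2.01 in H460, 2.10 in HCT116 and 3.88 in RKO.

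Each line had more peaks at the 8 genes in hypoxia than in normoxia. The mean difference over the lines was 8.25 ± 2.22 peaks (SD, n = 4 lines). A two-sided exact sign-flip permutation test over the lines gave p = 0.125, the smallest p that 4 lines allow. All gene windows together also held more peaks in hypoxia, with 3888 against 368 in normoxia in A549 and 3048 against 699 in H460. In HCT116 they held 3179 against 194, and in RKO 5871 against 1319. The direction of the difference is therefore not particular to the 8 genes. HK2, GPI, PFKL, PFKP and PFKFB4 had a peak in all 4 hypoxia lists, PFKFB3 in 3 lists and HK1 in 2. Of all protein-coding genes 3.26% had a peak in all 4 hypoxia lists and 48.2% in none.

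Peaks of different lines were joined into 1 region where they overlapped. The 36 hypoxia peaks of the 8 genes made up 17 regions, of which 4 were found in every line, 3 in 3 of the lines, 1 in a pair of lines and 9 in 1 line. The count in 1 line was 1 with a local fold of at least 6 and 24 with windows of 50 kb. The regions called in all 4 lines lay at GPI, HK2, PFKFB4 and PFKP. Thus 4 of the 8 genes had such a region, against 1.66% of all protein-coding genes. The RKO call at this PFKP region had a fold over input of 6.0, the least that was allowed in RKO. Of all 19625 regions, 1.19% were called in all 4 lines and 90.3% in 1 line.

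**Figure D2:**
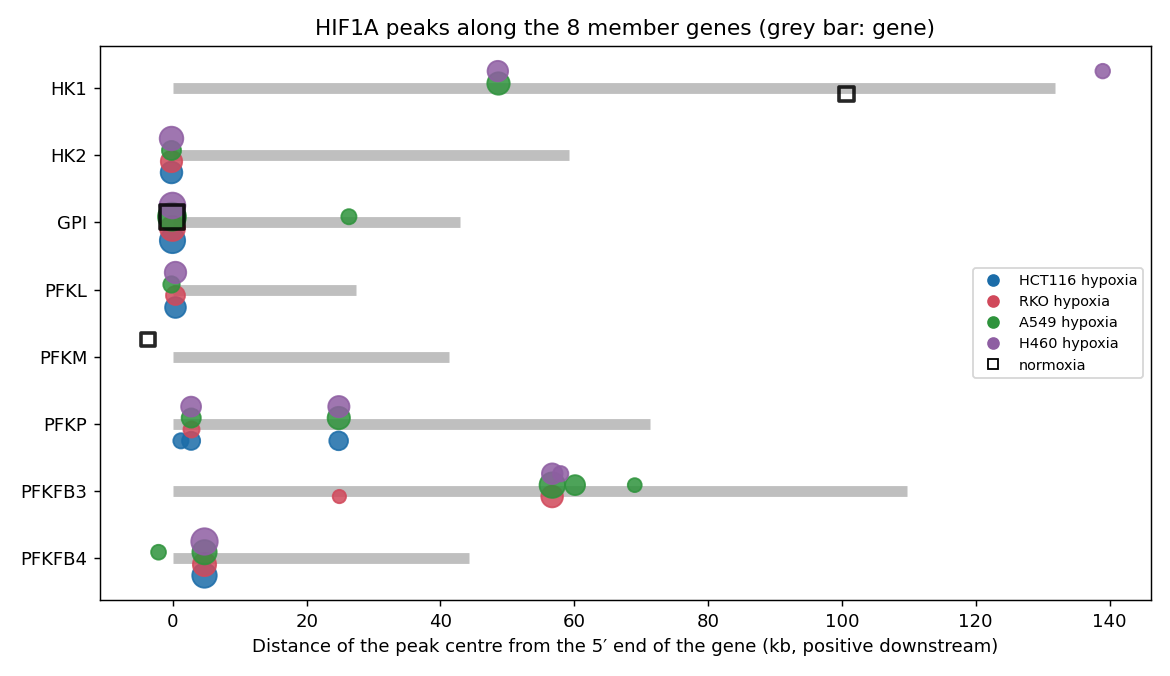
Each row is a gene, drawn to scale from its 5′ end at 0 (grey bar), and each mark is a peak centre at its distance in kb from that end. Filled circles are hypoxia peaks coloured by line, open black squares are the 3 normoxia peaks (RKO at HK1, A549 at GPI and H460 at PFKM), and a larger mark has a higher normalized tag count (the area follows its log2). At HK2 and GPI the strong peaks lie at the 5′ end, while at HK1 and PFKFB3 they lie far inside the gene.

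HK2 and HK1, the hexokinases, differed in how many lines had a peak. HK2 (gene record chr2:75061254-75120486, plus strand) encodes the hexokinase that is often raised in tumours. It had a single region in hypoxia, centred 237 to 260 bp upstream of the gene's start and within an exon of HK2-DT, a long noncoding RNA transcribed away from HK2.

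The HK2 region had a normalized tag count of 10.1 [7.42 to 13.4] in A549, 39.8 [34.5 to 45.8] in H460, 21.0 [18.0 to 24.4] in HCT116 and 19.4 [16.2 to 23.1] in RKO. H460 was the highest and A549 the lowest, while the intervals of HCT116 and RKO overlapped. The same region ranked 894 of 5408 peaks in A549, 134 of 3877 in H460, 73 of 3996 in HCT116 and 50 of 9171 in RKO, so A549 was also the list in which it ranked lowest. No normoxia list had a peak at HK2.

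HK1 (chr10:71029740-71161640, plus strand) encodes the hexokinase found in most tissues. In hypoxia it had an intronic region 48575 to 48579 bp into the gene record, which is 271 to 275 bp upstream of the start of a shorter coding transcript. The normalized tag count there was 26.8 [22.3 to 32.0] in A549 and 15.2 [11.9 to 19.0] in H460, with intervals that did not overlap. HCT116 and RKO had no call there, and no other HK1 peak in hypoxia.

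A weaker H460 peak of 3.44 [2.00 to 5.50] lay past the 3′ end of HK1 in coding sequence of TACR2, a tachykinin receptor gene. The RKO normoxia list had an intronic HK1 peak of 3.33 [1.86 to 5.49], 100692 bp downstream of the gene's start, which overlapped no hypoxia peak of any line and held no RCGTG in its central 200 bp. It ranked 1608 of the 2092 peaks of that list.

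GPI had the highest signal of the 8 genes in HCT116, RKO and A549. GPI (chr19:34850385-34893318, plus strand) is also secreted, where it is known as autocrine motility factor. Its main region was centred 104 to 143 bp upstream of the gene's start, in an exon of the long noncoding RNA gene ENSG00000267219.

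The normalized tag count at GPI was 199 [186 to 212] in A549, 83.9 [76.0 to 92.4] in H460, 71.5 [65.8 to 77.6] in HCT116 and 62.9 [57.1 to 69.2] in RKO. A549 lay above the other lines, and the intervals of H460 and HCT116 overlapped, as did those of HCT116 and RKO. The peak ranked 2 of 5408 in A549, 16 of 3877 in H460, 4 of 3996 in HCT116 and 3 of 9171 in RKO.

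The GPI region was the only one of the 17 that was also called in normoxia in the same line. In A549 normoxia its normalized tag count was 48.0 [41.6 to 55.2], which ranked 6 of 526. The peak held 927 tags in hypoxia and 198 in normoxia, a ratio of 4.15 (95% interval 3.55 to 4.86) after scaling to the library totals, with an adjusted p of 6.15e-93 in an exact conditional binomial test adjusted by the Benjamini-Hochberg method over 176 shared peaks. Being a comparison of 1 merged library with another, the test says nothing of the spread between replicates, and 73.3% of the shared A549 peaks passed it as higher in hypoxia. The GPI ratio was the 34th of 176, and the median ratio was 2.41. A second GPI peak, of 3.87 [2.29 to 6.11], was called in A549 hypoxia in an intron 26317 bp downstream of the start.

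The 3 genes for the phosphofructokinase subunits, named for liver, platelet and muscle, each had a different pattern. PFKL (chr21:45719934-45747259, plus strand) encodes the liver-type subunit. It had a region in its first kilobase, centred 331 to 352 bp downstream of the start in an intron, with a normalized tag count of 16.3 [13.7 to 19.3] in HCT116, 9.87 [7.63 to 12.6] in RKO and 20.0 [16.3 to 24.4] in H460. RKO was the lowest, and the intervals of HCT116 and H460 overlapped.

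In A549 that PFKL region was not called. The A549 list had a separate peak of 5.15 [3.30 to 7.67] instead, centred 247 bp upstream of the start, that did not overlap the region of the other lines. PFKL thus had a peak in all 4 hypoxia lists without a region shared by all 4 lines.

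PFKP (chr10:3108525-3179910, plus strand), the platelet-type subunit, had 2 regions called in at least 3 lines. The first was centred 2692 to 2751 bp downstream of the gene's start, which is 284 to 343 bp downstream of the start of a shorter coding transcript. Its normalized tag count was 10.3 [7.60 to 13.7] in A549, 12.7 [9.79 to 16.3] in H460, 7.85 [6.05 to 10.0] in HCT116 and 4.78 [3.27 to 6.75] in RKO. Each line's interval overlapped that of its neighbour in the order of the levels.

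The second PFKP region lay 24786 to 24817 bp downstream of the start in an intron, more than 13 kb from the start of any coding transcript. It had a normalized tag count of 9.20 [7.24 to 11.5] in HCT116, 26.4 [22.0 to 31.5] in A549 and 18.6 [15.0 to 22.8] in H460, and was not called in RKO. HCT116 was the lowest, and the intervals of A549 and H460 overlapped. A further region, with 3.93 [2.69 to 5.54], was called in HCT116 only, 1209 bp downstream of the start and at the start of another coding transcript.

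PFKM (chr12:48498922-48540187, plus strand), the muscle-type subunit, had no peak in hypoxia in any line. Its sole peak was in H460 normoxia, with a normalized tag count of 3 [1.72 to 4.88] from 16 tags. That peak lay 3762 bp upstream of PFKM in an intron of SENP1, a gene for a SUMO protease, and held no RCGTG in its central 200 bp.

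**Figure D3:**
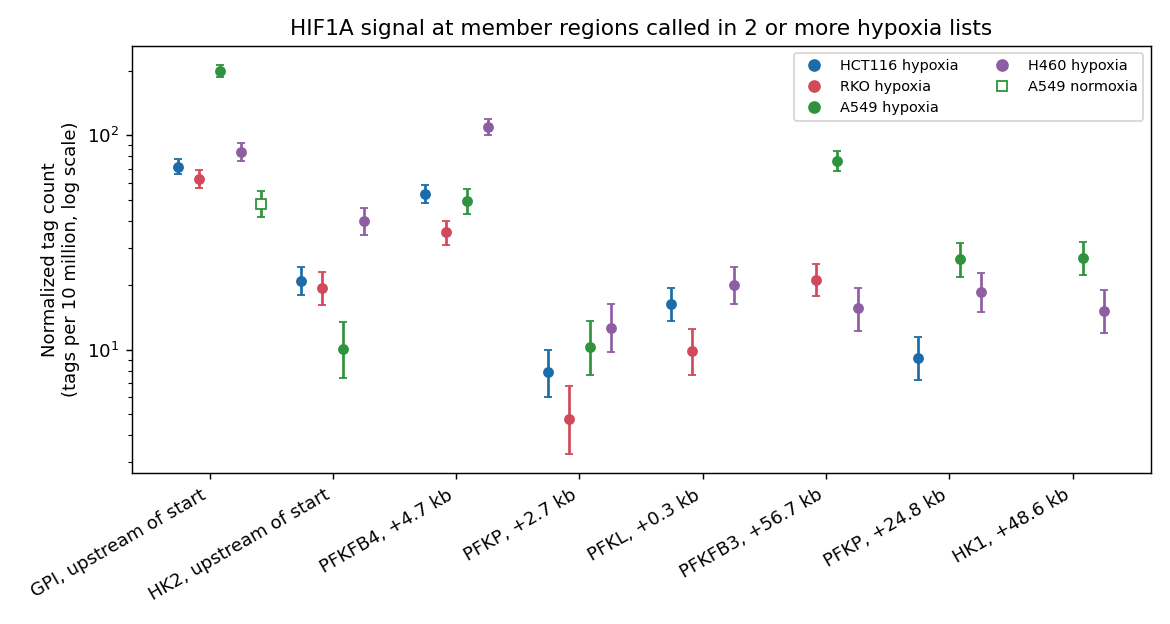
Points give the normalized tag count (tags per 10 M tags, log scale) at the 8 regions called in at least 2 hypoxia lists, coloured by line, with exact Poisson 95% intervals that cover counting error only. A missing point is a region that was not called in that line. GPI in A549 hypoxia, at 199, is the highest point, and the open square is the A549 normoxia value of 48.0 at GPI.

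The bifunctional enzymes had peaks that lay away from the 5′ end of their gene records. PFKFB4 (chr3:48555117-48599448, minus strand) is often raised in tumours. Its main region was centred 4724 to 4738 bp downstream of the start of the gene record, in an intron, and 260 to 274 bp upstream of the start of a shorter coding transcript.

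The normalized tag count at that PFKFB4 region was 49.4 [43.2 to 56.2] in A549, 109 [100 to 119] in H460, 53.2 [48.3 to 58.5] in HCT116 and 35.3 [30.9 to 40.1] in RKO. H460 was the highest and RKO the lowest, and the intervals of HCT116 and A549 overlapped. The peak ranked 53 of 5408 in A549, 5 of 3877 in H460, 11 of 3996 in HCT116 and 13 of 9171 in RKO. A weak A549 peak of 3.65 [2.13 to 5.85] lay 2135 bp upstream of PFKFB4, in an untranslated part of the collagen gene COL7A1 and 369 bp from the start of UCN2.

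PFKFB3 (chr10:6186897-6296607, plus strand) encodes the family member with the highest kinase activity relative to its phosphatase activity. Its main region was centred 56693 to 56716 bp downstream of the start of the gene record, 1216 to 1239 bp upstream of the start of a shorter coding transcript, and in introns of both PFKFB3 and the long noncoding RNA gene ENSG00000213994. The normalized tag count was 21.2 [17.9 to 25.0] in RKO, 76.2 [68.5 to 84.6] in A549 and 15.6 [12.3 to 19.5] in H460. A549 was the highest, the intervals of RKO and H460 overlapped, and HCT116 had no PFKFB3 peak in either condition.

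PFKFB3 had 4 more regions, each called in 1 hypoxia list. The strongest, in A549 at 12.7 [9.64 to 16.3], lay 60123 bp downstream of the start. Its fold over input was 54.5, where a call in A549 needed 13. Its fold over the surrounding 10000 bp was 3.64, where a call needed 3, and that stretch also holds the main A549 peak of PFKFB3. The others were an RKO peak of 2.69 [1.60 to 4.25], an H460 peak of 4.04 [2.47 to 6.25] at the start of the shorter coding transcript, and an A549 peak of 3.01 [1.64 to 5.04].

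The 25 peaks of regions called in 3 or 4 lines had normalized tag counts of 4.78 to 199 with a median of 21.0, and 17 of them were among the strongest 10% of their list. The 9 peaks of regions called in 1 line ran from 2.69 to 12.7 with a median of 3.87, and 0 of them were. The HK1 region called in A549 and H460 had a median of 21.0 as well. The first PFKP region, called in every line, was lower by value than the HK1 and main PFKFB3 regions where those were called. In H460 its interval of 9.79 to 16.3 overlapped those of HK1, 11.9 to 19.0, and of PFKFB3, 12.3 to 19.5. Signal enters the call itself, so the number of lines and the signal are not separate measures.

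Of the 36 hypoxia peaks, 12 were centred within 500 bp of the start of the gene record, and 24 were within 500 bp of the start of any coding transcript of the gene. The peaks counted only with the shorter transcripts lay at HK1, PFKP, PFKFB3 and PFKFB4. A region called in several lines counts once for each of them. The same shares were not computed over all hypoxia peaks, so nearness to a start is not shown to be particular to these genes.

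The lines were ordered differently when the peaks were set against strong sites of the same list. Over the 233 regions called in all 4 hypoxia lists, the median normalized tag count was 23 in A549, 26.9 in H460, 11.7 in HCT116 and 9.72 in RKO. Values were therefore also expressed as folds of these medians. Read this way, GPI stood at 8.66 in A549, 3.12 in H460, 6.11 in HCT116 and 6.47 in RKO, with A549 still the highest and H460 the lowest instead of RKO.

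HK2 on that scale stood at 0.439 in A549, 1.48 in H460, 1.80 in HCT116 and 2.00 in RKO. A549 was the lowest line for HK2 on both scales, while the highest was RKO instead of H460. PFKFB4 stood at 2.15 in A549, 4.07 in H460, 4.55 in HCT116 and 3.63 in RKO, so that A549 was the lowest instead of RKO. PFKFB3 stood at 3.31 in A549, 2.18 in RKO and 0.580 in H460, and A549 was the highest line on both scales.

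For PFKL the order of RKO and H460 turned, with folds of 1.02 in RKO, 1.39 in HCT116 and 0.744 in H460. The first PFKP region stood between 0.448 in A549 and 0.671 in HCT116, below the median of those shared regions in every line. The second PFKP region stood at 1.15 in A549, 0.691 in H460 and 0.786 in HCT116, so that H460 was the lowest instead of HCT116. HCT116 and RKO lysates were sonicated alike and those of A549 and H460 each differently. Line and sonication therefore cannot be told apart except between HCT116 and RKO. RKO and A549 shared a culture medium, while HCT116 and H460 each had another. Line and medium therefore cannot be told apart except between RKO and A549.

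**Figure D4:**
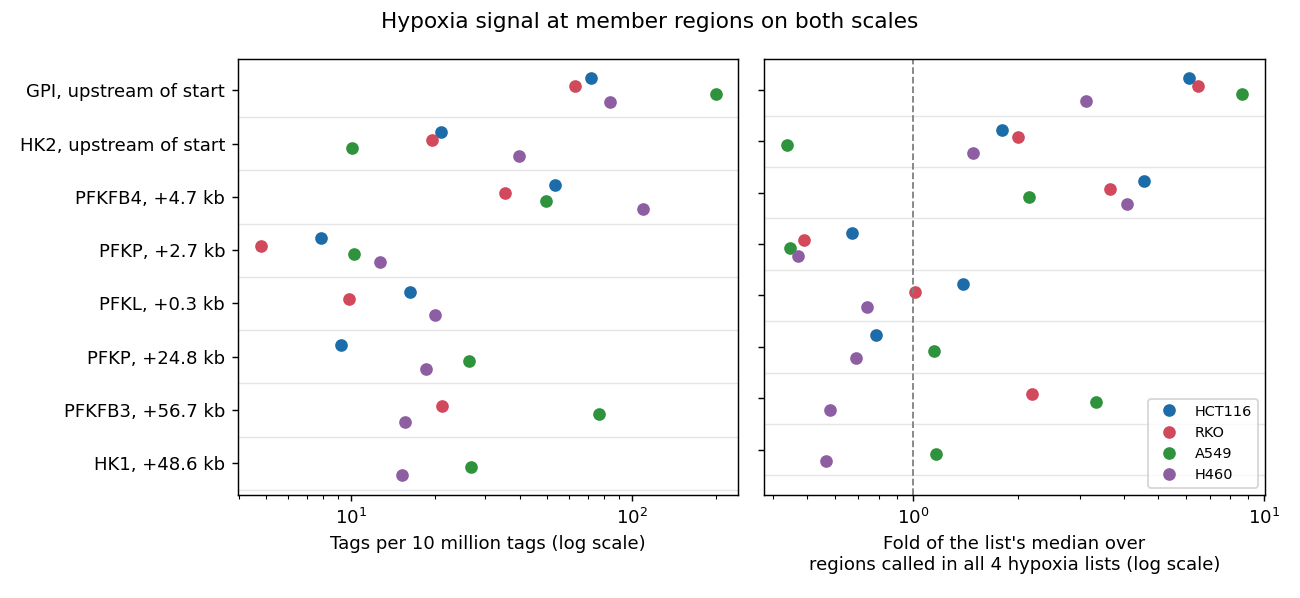
The same hypoxia peaks are shown as tags per 10 M (left) and as folds of the list's median over the 233 regions called in all 4 hypoxia lists (right), both on log scales and coloured by line. The dashed line is that median. GPI lies right of it in every line, from 3.12 in H460 to 8.66 in A549, and the first PFKP region lies left of it in every line.

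The 200 bp at each peak centre were searched for RCGTG on either strand. It was present in 32 of the 36 hypoxia peaks (88.9%, Wilson 95% interval 74.7 to 95.6), namely 9 of 12 in A549, 10 of 10 in H460, 7 of 7 in HCT116 and 6 of 7 in RKO. Over all peaks of the hypoxia lists it was present in 52.4% in A549, 76.9% in H460, 65.1% in HCT116 and 30.5% in RKO, and in windows 2000 bp to either side in 19.5% to 24.2%. Peaks of different lines at 1 region share their sequence, while the interval takes the 36 peaks as independent. The count by region is therefore the fairer one.

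By region, RCGTG was found in 13 of 17. All 8 regions called in at least 2 lines held it, as did 89.4% of all regions called in 2 lines, 95.5% of those called in 3 and 97.9% of those called in 4. Of the 9 regions called in 1 line 5 held it, against 38.9% of all such regions. The regions without it were the second GPI region, the RKO and the weakest A549 region of PFKFB3, and the A549 region upstream of PFKFB4.

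The nearest RCGTG lay close to the peak centre. The median distance over the 32 peaks was 11.5 bp, and 23 of them had it within 20 bp. Over all hypoxia peaks with a match, the median distance was 20 bp in A549, 16 bp in H460, 20 bp in HCT116 and 25 bp in RKO. Of those peaks, 51.0% in A549, 59.1% in H460, 50.3% in HCT116 and 43.4% in RKO had it within 20 bp. The 32 member peaks count the same core once for each line with a call. At PFKFB4 the same ACGTG at chr3:48594716-48594720 lay within 8 bp of the centre in all 4 lines.

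GPI had more matches than the other genes, with 5 in the A549 peak printed above, and its palindrome CACGTG was in all 4 lines' windows. CACGTG was otherwise found at 1 member peak, the H460 peak at the start of the shorter PFKFB3 transcript, and in 4.74% to 9.54% of all hypoxia peaks of a list. A match describes the sequence and does not show which protein was bound.

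**Figure D5:**
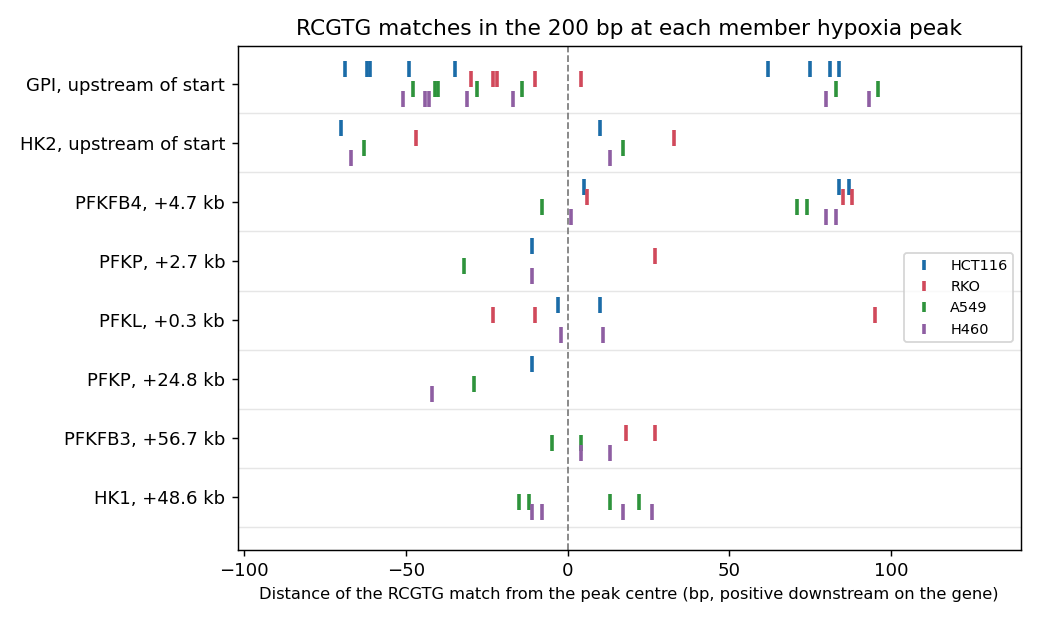
Ticks mark RCGTG matches on either strand by their distance in bp from the peak centre, within 100 bp to either side, for each hypoxia peak of the 8 regions called in at least 2 lists, coloured by line. Every peak shown has a match, and at PFKFB4 and PFKL a match lies within 10 bp of the centre in each line with a call.

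Genes of related steps were read in the same windows. Beside the counts that follow, 48.2% of all protein-coding genes had no peak in any hypoxia list and 3.26% had one in all 4. The share of all genes with a peak in any normoxia list is not given. Of 11 genes that act on the same sugars, among them HK3, HKDC1, ADPGK, PFKFB1, PFKFB2, TIGAR, FBP1, FBP2, G6PC1 and G6PC3, 8 had a peak in at least 1 hypoxia list, 1 in at least 3 lists and 0 in all 4, and 0 had a peak in normoxia. The gene with a peak in 3 lists was ADPGK, which phosphorylates glucose with ADP, with 7.36 in HCT116, 5.23 in RKO and 20.4 in H460. Neither PFKFB1 nor PFKFB2, the other PFKFB genes, had a peak in any list.

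Of 12 genes of the lower part of glycolysis, all 12 had a peak in at least 1 hypoxia list, 10 had one in all 4 and 9 had one in normoxia. The 10 were ALDOA, ALDOC, TPI1, GAPDH, PGK1, PGAM1, ENO1, ENO2, PKM and LDHA. Their highest normalized tag counts ran from 11.3 at TPI1 to 92.4 at ENO1 in HCT116, from 6.43 at TPI1 to 61.7 at PGAM1 in RKO, from 30.1 at TPI1 to 127 at PGAM1 in A549, and from 18.0 at ENO2 to 99.1 at ALDOA in H460. GPI in A549, at 199 [186 to 212], was above all 10 in its list. GPI in RKO, at 62.9 [57.1 to 69.2], and PFKFB4 in H460, at 109 [100 to 119], were above all 10 by value. The RKO interval of GPI held the 61.7 of PGAM1, so these are not told apart. ALDOA in H460 lay just under the PFKFB4 interval, and no intervals are given for the 10 genes. In HCT116, ENO1 at 92.4 and PGAM1 at 83.8 were above GPI, the highest of the 8 genes at 71.5 [65.8 to 77.6]. Counted as for the 12, the 8 genes gave 7 with any hypoxia peak, 5 with one in all 4 hypoxia lists and 3 with one in normoxia.

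Genes with the most similar pattern were sought by the distance over the 8 lists between log2 values of the highest normalized tag count plus 1, leaving out genes whose highest peaks are the member's own. This was done for the 5 genes with a peak in all 4 hypoxia lists. A list without a call entered the distance as 0, although the level there is unknown. The highest peak of a gene could lie at another site in another list, as it did for PFKL and PFKP. The nearest to GPI was the peak shared by EXOSC1, PGAM1 and RRP12 at a distance of 1.03, with 127, 97.7, 83.8 and 61.7 in hypoxia in A549, H460, HCT116 and RKO and 28.4 in A549 normoxia. The nearest to PFKFB4 were PDK1 at 0.85 and then the shared peak of FBXO16 and ZNF395 at 1.16. The nearest to HK2 were the shared peak of MYLK4 and WRNIP1 at 0.73 and ACAP2 at 0.98. The nearest to PFKP were DNM2 at 0.33, CMIP at 0.46 and ENSG00000282936 at 0.53, and the nearest to PFKL were LYSMD3, CLK2 and SMARCC1, each at 1.03.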

How the data were processed

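HIF1A ChIP-seq libraries and inputs of 4 cell lines were processed by the authors, who, with versions from the submitters' processing notes, aligned reads to GRCh37 with Bowtie2 2.2.9, processed alignments with SAMtools 1.3.1 and Picard 1.129, pooled the replicates within a group and ran the peak caller of HOMER 4.3 against the line's input. The deposited signal is the normalized tag count per 10 M tags, and the deposited fold ratios compare a peak with input and, as the authors' other measure, with the surrounding 10000 bp. Per the file headers, calls needed a local fold of 3, and 0.001 was the limit for the p-value and for the false discovery rate. The fixed peak width ran from 118 to 190 bp, and the weakest peaks of a list held 11 to 20 tags.

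Here whole tags were recovered from signal and library totals, and equalled the header values in all 8 lists. Groups came from the sample titles. The RKO and A549 inputs, on which calls and folds over input in those lines rest, carry each other's line in the description, and all 4 inputs have HCT116 as source name. The titles, cell line labels and file headers were followed. The sign-flip and conditional binomial tests were exact and written in Python 3.11.15 with scipy 1.17.1. Of these the conditional binomial test was checked on simulated data. The simulated tags had counting error only, as the test assumes, so the check does not cover spread between replicates. Dixon's ratio, used below, was compared with a critical value of 0.829. Peaks were joined at an overlap of 1 bp. All 8 members are named, as are related genes with a peak in at least 3 hypoxia lists. For each member with a peak in every hypoxia list, the 3 nearest genes are also named. One gene of the related list is not reported here. The members and gene lists were chosen with earlier results of these data known. Alternatives changed the thresholds, windows, overlap, scale, motif window and lines used.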

Additional observations from a re-analysis of the deposited data

Results flagged for a closer look

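GPI in A549 hypoxia, with a normalized tag count of 199.1, stood apart from the other lines. Its gap to the next line, H460, was 0.846 of the range over the 4 lines, above Dixon's critical value at the 95% level. Of the 4 regions with a value in all 4 lines 1 passed, and chance flags about 1 group in 20. As folds of the median over regions called in all 4 lines, the gap was 0.395 of the range, under the critical value.

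HK1 had 1 peak in RKO normoxia and 0 in RKO hypoxia, a difference of -1, while hypoxia minus normoxia was 1 in A549 and 2 in H460. The peaks lay at different places in the gene, and this difference between lines was not tested.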

How the results depend on the processing

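No paired analysis was possible because the replicates were merged before peaks were called, so no list holds values of a single replicate. The pairing used was that of both conditions within a line. The difference in peaks between hypoxia and normoxia was positive under every alternative run, from 6.25 with a local fold of at least 6 to 12 with windows of 50 kb, and from 7.33 to 9 when a line was left out, where 3 lines allow no exact p below 0.25. With the fold over input set to 14 throughout, 0 genes had a peak in RKO normoxia and the RKO hypoxia list kept 4 of 7 peaks. A region in all 4 hypoxia lists was then left at 2 instead of 4 genes. HK2 and PFKP lost theirs, with folds over input in RKO of 12.2 and 6.0. The H460 normoxia count fell to 0 genes with a local fold of at least 6 or with windows from 2.5 kb upstream to the gene end, and the A549 normoxia count rose to 3 with windows of 50 kb. With a local fold of at least 6, RCGTG was in 96.3% of the hypoxia peaks. Regions called in 1 line numbered 1 with that local fold and 24 with windows of 50 kb, where HCT116 hypoxia had 11 peaks and RKO hypoxia 13. Counted from every annotated transcript start, 29 instead of 14 hypoxia peaks lay within 2.5 kb. Against the regions called in all 4 lines, the log2 ratio of H460 to RKO became -0.45 at PFKL and -0.059 at the first PFKP region, both above 0 per 10 M tags. The signal itself is not scaled for immunoprecipitation efficiency, and a site under a list's threshold has no value.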

Other observations

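Some of the printed sequences share an arrangement of their RCGTG cores that was seen only after the sequences had been read out, and it is given as a description. At HK1 and at the main PFKFB3 region, 2 ACGTG cores in the same direction were separated by 4 bases, and at the A549 region of PFKFB3 further downstream ACGTG and GCGTG, both against the gene, had the same spacing. This made 6 of the 36 hypoxia peaks at the 8 genes, with 3 in A549, 2 in H460, 0 in HCT116 and 1 in RKO. They come only from the HK1 and PFKFB3 regions just named, and a region called in several lines counts once for each. The PFKFB3 region further downstream had a fold of 3.64 over the surrounding 10000 bp and of 54.5 over input. Because the spacing was picked from these same sequences, the shares that follow do not test it. Over all hypoxia peaks, 2 RCGTG cores in the same direction with 4 bases between them were found in the central 200 bp of 0.98% in A549, 1.81% in H460, 1.25% in HCT116 and 0.458% in RKO, and over the peaks of regions called in all 4 lines in 6.44% to 6.87%. In the windows 2000 bp to either side the share was 0.0277% to 0.0645%. At PFKL the 2 cores of the printed peak pointed towards each other with 8 bases between them, and the GPI cores had no such spacing.

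The weak member peaks lay near other genes in several cases. The H460 normoxia peak assigned to PFKM was in SENP1, the A549 peak upstream of PFKFB4 was in COL7A1, and the H460 peak past the end of HK1 was in TACR2, and all 3 peaks also fall in the windows of those genes.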
